A study of Rattus norvegicus with 6 samples.

Results

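The rat arrays carried 71 spots, 60 probes and 40 genes whose symbol in the scanner files starts with *Kif* or *Kifc* and a digit, out of 45598 probes and 17960 named genes. These genes encode kinesins. They were divided by textbook function into 13 mitotic kinesins, which work on the spindle and in cytokinesis, 15 transport kinesins, which carry organelles and vesicles, and 12 other kinesins, mostly of cilia, centrioles or signalling. This division was made with earlier results of these data known. *Kif2a*, *Kif2b* and *Kif24* were put among the others, though *Kif2a* also acts at spindle poles. Where a gene had several probes, the one with the highest mean over the 6 arrays stood for it, whichever group gave the signal. The values are deposited log2 intensities after background correction and quantile normalization, and every log2 ratio gives the replicating over the quiescent cells.

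The samples were β-cells from islets of young adult male Wistar rats, with no genetic change or drug treatment. Islets pooled from 4 rats made 1 preparation, and there were 3 preparations. All islets were kept overnight at low glucose with EdU, a thymidine analogue built into new DNA, then dispersed, fixed with paraformaldehyde and sorted by size, granularity and the zinc dye Newport Green. EdU-positive cells were the replicating group (n = 3) and EdU-negative cells of the same preparations the quiescent group (n = 3). EdU marks cells that made DNA at any time of the culture, so the replicating group can hold cells in S phase, G2, mitosis or after division. RNA was amplified, labelled with Cy3 and hybridized to 6 arrays on 1 slide.

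Kinesins are motors that use ATP to walk along microtubules or to take their ends apart. In dividing cells they build and focus the spindle, move chromosomes, shorten microtubule ends at kinetochores and organize the midzone where the cell is cut. In cells at rest, including β-cells, the transport kinesins haul insulin granules, mitochondria and endosomes, with light chains and adaptors that link them to cargo.

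The promoter letters and 3 of the array probes are shown first, since the results turn on 2 classes of the same family. The probes below belong to *Kif22* and *Kif20b*, which had some of the highest ratios of the mitotic class, and to *Kif5b*, the kinesin-1 heavy chain known from insulin granules. They are printed 5′ to 3′ in lower case, with no part marked.

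*Kif22*, rn4 chr1:186208388-186208447, minus strand: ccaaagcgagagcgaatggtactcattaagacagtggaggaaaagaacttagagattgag
*Kif20b*, rn4 chr1:238943395-238943812, plus strand: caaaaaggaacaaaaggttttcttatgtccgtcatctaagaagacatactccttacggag
*Kif5b*, rn4 chr17:59726315-59726374, plus strand: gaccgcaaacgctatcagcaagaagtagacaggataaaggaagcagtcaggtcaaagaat

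The *Kif20b* probe has 60 bases on a genome span of 418, as have 8 of the 60 kinesin probes with a span longer than their own letters, so that they cross a gap in the genome. The files do not say in which part of a gene a probe lies.

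RefSeq promoters of GRCr8, from 250 bases before to 50 after the start site, were at hand for 11 mitotic, 10 transport and 8 other kinesins. For each kinesin gene the first listed promoter was taken. The shares over all promoters count every listed window of full length, without a choice of 1 per gene. Both strands were searched for TTTGAA, the core of the cell cycle homology region, CCAAT, the NF-Y box, and GGCGGGAA, an E2F box. No 2 different motifs overlapped in these windows (0 overlaps). TTTGAA stood in 6 of the 11 mitotic windows (*Kif22*, *Kif20b*, *Kif15*, *Kif4a*, *Kifc1* and *Kif23*), in 0 of 10 transport windows and in 2 of 8 other windows, against 18.3% of all 33469 promoters of that length. CCAAT stood in 7 mitotic, 3 transport and 3 other windows, against 37.5% of all promoters. GGCGGGAA stood in 2 mitotic, 0 transport and 1 other window, against 1.91% of all. The 100 bases before the start site are given for 3 mitotic kinesins that hold both TTTGAA and CCAAT there, for *Kif18b*, which has neither, and for *Kif5b*. Capitals mark the searched motifs, which on the opposite strand read TTCAAA and ATTGG.

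*Kif22*, GRCr8 chr1:191080879-191080978, minus strand: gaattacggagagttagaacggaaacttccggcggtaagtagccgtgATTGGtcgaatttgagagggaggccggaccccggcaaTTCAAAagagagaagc
*Kifc1*, GRCr8 chr20:5000829-5000928, plus strand: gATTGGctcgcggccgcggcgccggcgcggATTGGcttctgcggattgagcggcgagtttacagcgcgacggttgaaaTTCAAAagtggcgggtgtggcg
*Kif23*, GRCr8 chr8:71320585-71320684, minus strand: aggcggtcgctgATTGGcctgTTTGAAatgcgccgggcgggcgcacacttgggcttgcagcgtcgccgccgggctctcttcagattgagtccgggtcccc
*Kif18b*, GRCr8 chr10:88389692-88389791, minus strand: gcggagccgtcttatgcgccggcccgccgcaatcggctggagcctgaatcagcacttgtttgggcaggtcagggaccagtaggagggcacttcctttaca
*Kif5b*, GRCr8 chr17:56185286-56185385, plus strand: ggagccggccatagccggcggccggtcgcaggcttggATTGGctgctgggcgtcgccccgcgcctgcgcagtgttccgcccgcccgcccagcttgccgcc

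The 3 highest ratios of the mitotic class, given below, were those of *Kif22* and *Kif20b*, with TTTGAA, and *Kif18b*, without it. These matches are a description of letters in a window.

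Over all arrays, quiescent array 2 stood furthest apart. Its r with the other 5 arrays lay between 0.65 and 0.83 across probes, which are not independent. Of its spots 1583 were marked as outliers against 252 to 299 elsewhere. The quiescent arrays were not alike as a group. Quiescent array 1 had an r of 0.83 to 0.89 with every other array. Quiescent array 3 had 0.94 to 0.97 with the replicating arrays but 0.87 with quiescent array 1. Between 80.8% and 98.4% of probes were well above background, and 0 probes were saturated. The highest shares were those of quiescent arrays 1 and 2, at 96.4% and 98.4%. With limma, 0 of 45598 probes had a Benjamini-Hochberg adjusted p under 0.05, and the smallest was 0.0977. At an unadjusted p of at most 0.05 there were 4379. A probe was therefore called, by the study's own selection, where p before adjustment was no more than 0.05 and the log2 ratio was 1 or more in size. By this rule 4.44% of all probes (2023) were called higher and 4.18% (1905) lower. With 1 probe per named gene the shares were 5.63% and 2.76%. The study counts more genes in each direction by this selection, so its calls are not all recovered here. The reason was not tested. Precision is limited by the 3 arrays in each group. The defining β-cell transcripts *Ins1* and *Ins2* were bright in both groups, with a lowest reading of 15.51. The alpha cell transcript *Gcg* was bright too. It read 14.23, 15.52 and 16.39 on the replicating arrays and 12.885, 12.25 and 13.84 on the quiescent arrays. Bright insulin readings are therefore no measure of purity.

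Mitotic kinesins were higher in the replicating β-cells. Of the 13 genes 9 rose and 0 fell, with log2 ratios of the called genes between 1.23 and 4.64, or 2.34-fold to 25.0-fold. The named genes had 5.63% called higher. The median ratio of all 13 was 2.19, against 0.00 over 17960 named genes and -0.07 over all probes, and it was 2.77, 1.73 and 2.30 in preparations 1, 2 and 3. The class was set with earlier results of these data known. With *Kif2a*, *Kif2b* and *Kif24* counted as mitotic, 11 genes were called higher and the median was 2.12. In 9 genes the 3 replicating arrays all lay above the 3 quiescent arrays, as in 10.6% of named genes with all 6 values. In a pool of sorted cells, fewer cells that express a gene and less RNA per cell cannot be told apart. The study already lists *Kif22*, *Kif18b* and *Kif20b* among its top raised genes from these same arrays. Their rise here is no separate result.

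**Figure D1:**
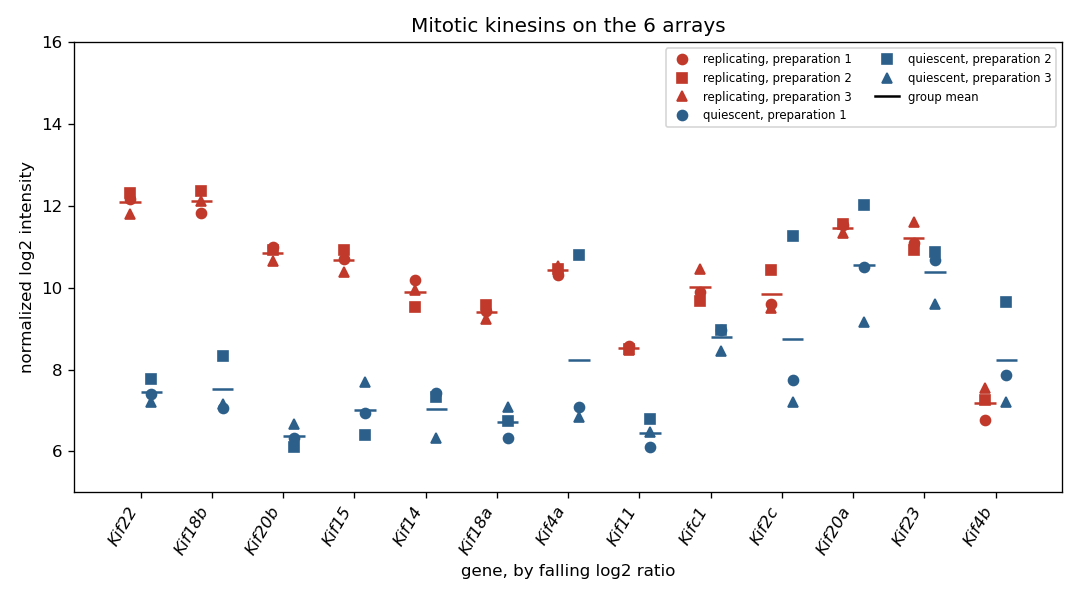
Normalized log2 intensity (vertical axis) of the 13 mitotic kinesins (horizontal axis, by falling ratio) on the 3 replicating (red) and 3 quiescent (blue) arrays; symbols are preparations and bars group means. From *Kif22* to *Kif18a* the groups lie apart, while the quiescent square of preparation 2 stands above the replicating points for *Kif4a*, *Kif2c*, *Kif20a* and *Kif4b*.

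Chromosome-bound motors gave the largest and one of the least even ratios. *Kif22*, the chromokinesin Kid that pushes chromosome arms away from the poles, read 12.17, 12.32 and 11.81 on the replicating arrays and 7.41, 7.76 and 7.21 on the quiescent arrays. The groups lay far apart, at 12.10 ± 0.26 and 7.46 ± 0.28 (SD, n = 3). This was a 25.0-fold difference, a log2 ratio of 4.64 (standard error 0.30) that was 4.77, 4.56 and 4.61 within the preparations. From limma p was 1.7e-05 before and 0.0977 after adjustment. *Kif4a*, which binds chromatin and later the midzone with the microtubule bundler PRC1, read 10.32, 10.46 and 10.53 on the replicating arrays and 7.10, 10.80 and 6.83 on the quiescent ones. Quiescent array 2 was above all replicating arrays, so the groups overlapped. Its ratio was 2.19 (standard error 0.85), with 3.23, -0.34 and 3.70 in the preparations, and its unadjusted p of 0.048 was just inside the threshold. Without preparation 2 the ratio was 3.46, and without preparation 1 or 3 it was 1.68 or 1.44 and no longer called. The call was also lost with Feature Extraction's processed signal, scaled to the 75th percentile (3.01, unadjusted p = 0.0556), and without the preparation as a block (unadjusted p = 0.0745). *Kif4b*, a near copy of *Kif4a*, had a ratio of -1.05 (unadjusted p = 0.13) on a dim probe and 0.02 on its other probe, and its signal is uncertain where the copies share sequence.

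The kinesin-8 motors, which shorten microtubule plus ends, both rose. *Kif18b*, which acts on astral microtubules, read 11.84, 12.37 and 12.12 on the replicating and 7.06, 8.32 and 7.15 on the quiescent arrays. The lowest replicating value was above the highest quiescent value, and the ratio of 4.60 (standard error 0.35) was 24.2-fold, with an adjusted p of 0.0977 from limma. *Kif18a*, which damps the swinging of chromosomes at the spindle equator, read 9.43, 9.58 and 9.23 against 6.33, 6.74 and 7.07. Its ratio was lower, at 2.70 (standard error 0.35), and again the groups did not overlap. *Kif2c*, the depolymerase MCAK of centromeres, was different: the replicating arrays read 9.59, 10.44 and 9.51, and the quiescent arrays 7.74, 11.27 and 7.21. Only quiescent array 2 was high, and the ratio of 1.11 (unadjusted p = 0.16) was not called. Without preparation 2 it was 2.08 with an unadjusted p of 0.0011.

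The motors that push the poles apart and those that focus them also rose. *Kif15*, which keeps the spindle bipolar, read 10.71, 10.92 and 10.38 on the replicating arrays and 6.93, 6.41 and 7.70 on the quiescent arrays. The groups did not overlap, with a ratio of 3.66 (standard error 0.45), or 12.6-fold, and an adjusted p of 0.18 from limma. *Kif11*, the motor Eg5 that slides antiparallel microtubules, read 8.57, 8.51 and 8.47 against 6.11, 6.78 and 6.47. The replicating values were close to each other, with an SD of 0.0547 (n = 3), and the ratio was 2.06 (standard error 0.33), or 4.18-fold. *Kifc1*, a minus-end motor that focuses spindle poles, read 9.90, 9.68 and 10.47 against 8.97, 8.96 and 8.45. All 3 replicating arrays were higher, but its ratio of 1.23 (unadjusted p = 0.025) was the smallest of the called genes. The call was lost without preparation 1 or 3, with a variance trend and with both scalings to the 75th percentile.

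Among the kinesins of cytokinesis, *Kif20b* and *Kif14* rose and *Kif20a* and *Kif23* were not called. *Kif20b*, needed for the last cut between daughter cells, read 10.999, 10.93 and 10.65 against 6.32, 6.11 and 6.66. The ratio of 4.49 (standard error 0.34) was 22.5-fold, and it was the only kinesin of the 3 largest ratios whose quiescent array 2 was its lowest array. *Kif14*, which works with citron kinase, read 10.20, 9.54 and 9.95 against 7.43, 7.34 and 6.33, a ratio of 2.86. Its signal cleared background on 2 quiescent arrays out of 3, and its other, dimmer probe rose by 1.03.

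*Kif20a* (MKLP2), which takes the chromosomal passenger complex to the midzone, read 11.53, 11.55 and 11.34 against 10.50, 12.02 and 9.17. The quiescent values spanned the replicating ones and the ratio of 0.91 had an unadjusted p of 0.16. *Kif23* (MKLP1), a subunit of centralspindlin, read 11.09, 10.93 and 11.62 against 10.67, 10.87 and 9.61. Its arrays did not overlap, yet in preparations 1 and 2 the ratio was 0.42 and 0.06 and in preparation 3 it was 2.01. The fitted ratio of 0.83 had an unadjusted p of 0.14. On the quiescent arrays these 2 genes were at 10.56 ± 1.43 and 10.38 ± 0.68 (SD, n = 3). Without preparation 2, *Kif20a* was at 1.60 and *Kif23* at 1.22, both called, and the count of called mitotic kinesins was 12 of 13. Without preparation 1 or 3 it was 7.

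Most transport kinesins were not called in either direction. Of the 15 genes 0 were called higher and 1 lower, against 5.63% and 2.76% of named genes. Ratios above 0 were measured for 13 of them, and the 14 that were not called lay between -0.94 and 1.26. The median ratio was 0.44, with 0.53, 1.00 and -0.02 in preparations 1, 2 and 3, so its sign was not the same in all preparations. In 1 gene, *Kif1b*, the replicating arrays all lay above the quiescent ones, and in 1, *Kifc2*, all below, where 6.23% of named genes had all 3 replicating arrays below.

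**Figure D2:**
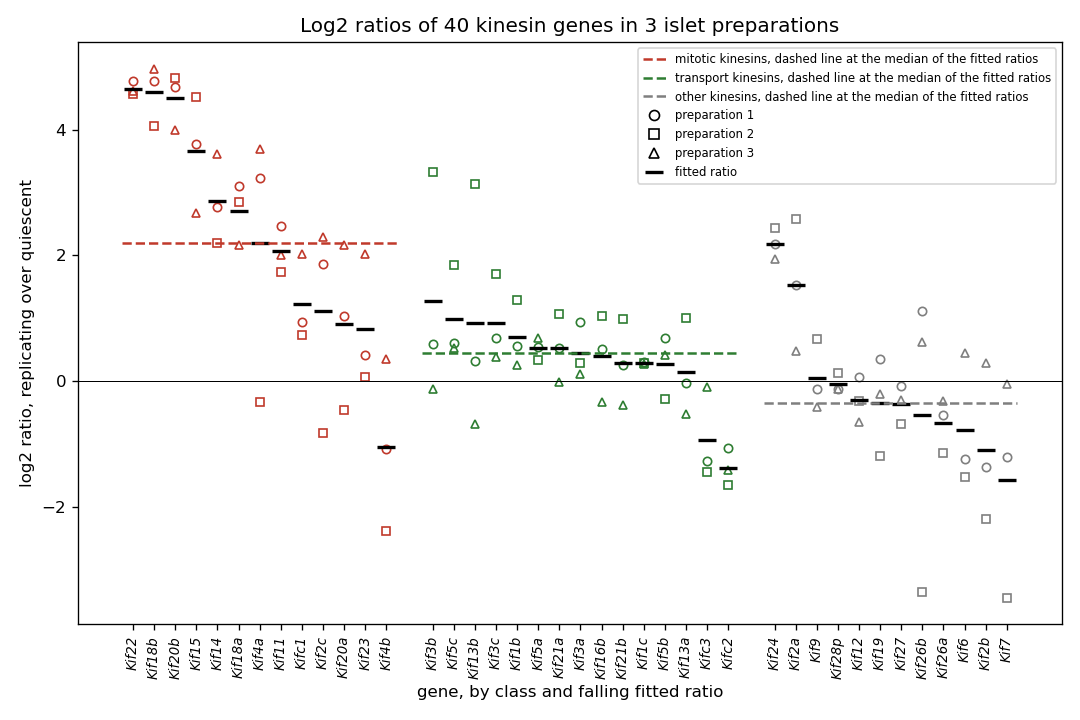
Log2 ratio of replicating over quiescent β-cells (vertical axis) for 40 kinesin genes grouped by class (horizontal axis), with open symbols for the 3 preparations, black dashes for the fitted ratio and dashed lines for class medians. The medians stand at 2.19 for mitotic, 0.44 for transport and -0.36 for other kinesins, and the spread between preparations is widest for *Kif4a*, *Kif26b*, *Kif3b* and *Kif13b*.

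The class medians differed by 1.75 between mitotic and transport kinesins. Within preparations 1, 2 and 3 the difference was 2.24, 0.73 and 2.32, above 0 each time. The test of single probes does not cover this difference, which is given as a description.

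Kinesin-1, the classical cargo motor, had ratios above 0 and no call. *Kif5b*, its widely expressed heavy chain, known to move insulin granules, read 12.68, 12.26 and 12.55 on the replicating and 12.00, 12.55 and 12.13 on the quiescent arrays. The values interleaved, with a ratio of 0.27 (standard error 0.35, unadjusted p = 0.47). A second *Kif5b* probe gave 0.86. The neuronal heavy chains *Kif5c* and *Kif5a* had ratios of 0.99 and 0.52 at lower signal. *Kif5c* read 9.60, 8.87 and 9.69 against 9.0, 7.02 and 9.16, and missed the threshold with an unadjusted p of 0.055, while its other probe gave -0.12.

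**Figure D3:**
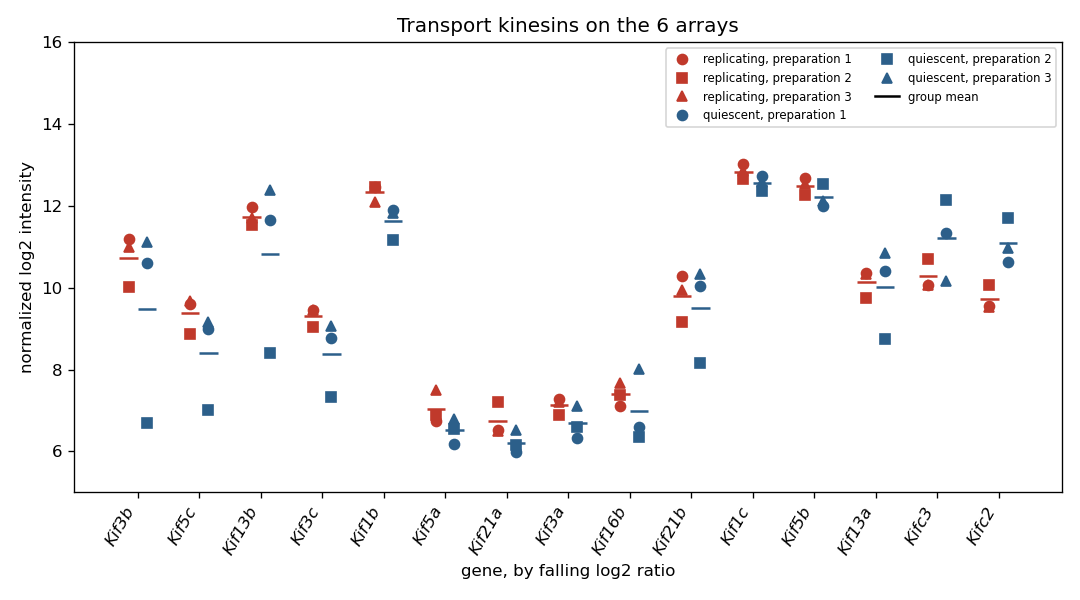
Normalized log2 intensity (vertical axis) of the 15 transport kinesins (horizontal axis, by falling ratio) on the 3 replicating (red) and 3 quiescent (blue) arrays; symbols are preparations and bars group means. The quiescent square of preparation 2 is the lowest point of *Kif3b*, *Kif5c*, *Kif13b* and *Kif3c*, and *Kifc2* has its 3 quiescent points above its 3 replicating points.

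The kinesin-2 motors drive transport in cilia and of organelles. *Kif3b* had the highest ratio of the class, 1.26, but not a call (unadjusted p = 0.14). It read 11.19, 10.02 and 10.99 against 10.61, 6.69 and 11.11, so that 1 low array, quiescent array 2, carried the difference, and without preparation 2 the ratio was 0.23. Its partner *Kif3a* was at 0.44 and *Kif3c* at 0.92. Their accessory subunit *Kifap3*, which links them to cargo, read 10.98, 11.49 and 10.77 against 10.38, 9.34 and 11.07, a ratio of 0.82.

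The kinesin-3 motors carry vesicles over long distances. *Kif1b*, a carrier of mitochondria and synaptic vesicle precursors, read 12.45, 12.45 and 12.09 against 11.89, 11.17 and 11.84. The groups did not overlap, at a ratio of 0.70 (standard error 0.36, unadjusted p = 0.11). *Kif1c*, which carries vesicles and mRNA, read 13.02, 12.65 and 12.85 against 12.73, 12.36 and 12.58, with ratios of 0.30, 0.29 and 0.27 in the 3 preparations. *Kif13b*, a carrier of membrane proteins, read 11.98, 11.53 and 11.72 against 11.66, 8.40 and 12.40. Its ratio of 0.92 became -0.18 without preparation 2, and *Kif13a* went from 0.14 to -0.28. *Kif16b*, which carries early endosomes, was at 0.40, and *Kif21a*, well above background on 2 of 3 quiescent arrays, at 0.52.

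The C-terminal transport motors, which walk to the minus end, had ratios below 0. *Kifc2* was the only kinesin that fell with the deposited values. It was measured by 10 spots of 1 probe, which read 9.56, 10.06 and 9.54 on the replicating and 10.62, 11.71 and 10.96 on the quiescent arrays. All 3 quiescent arrays were higher, with a ratio of -1.38 (standard error 0.32, unadjusted p = 0.0071, adjusted p = 0.47 from limma), or 2.61-fold lower. With the processed signal the ratio was -1.44, and its unadjusted p of 0.0569 ended the call. *Kifc3* read 10.06, 10.701 and 10.07 against 11.33, 12.15 and 10.17, a ratio of -0.94 with an unadjusted p of 0.064. Its quiescent arrays were all above their own pairs, but the ratio in preparation 3 was only -0.10.

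Of the 12 other kinesins 2 rose and 0 fell, with a median ratio of -0.36, where 5.63% of named genes were called higher and 2.76% lower. Both that rose are motors that take microtubules apart. *Kif24*, which works at centrioles and holds back cilia, read 8.63, 9.43 and 8.68 against 6.46, 6.99 and 6.74. The groups lay apart, at a ratio of 2.18 (standard error 0.31), or 4.54-fold, and 2.17, 2.43 and 1.94 in the preparations. *Kif2a*, which acts at spindle poles and in neurons, read 8.85, 9.07 and 8.94 against 7.33, 6.48 and 8.47. Its ratio of 1.53 was called (unadjusted p = 0.025), but it was 1.00 without preparation 2 with an unadjusted p of 0.057, and its second probe gave 0.88. The call was also lost without preparation 1 (unadjusted p = 0.107) and with the processed signal (1.31, unadjusted p = 0.0799). *Kif2b*, another kinesin-13 motor, was not well above background on any replicating array and was so on 2 of 3 quiescent arrays. It read 5.94, 6.21 and 6.17 against 7.31, 8.40 and 5.88, so the groups overlapped and preparation 3 went the other way, at 0.29. The group means were 6.10 and 7.20. With the replicating readings raised to the lowest well-above-background reading of their array, the replicating mean was 1.78-fold lower. This compares means only and is no limit for each preparation. The ratio of -1.09 was not called (unadjusted p = 0.10). It was -0.54 without preparation 2, and it passed the threshold without preparation 3, at -1.78, and with scaled normexp values, at -1.45.

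**Figure D4:**
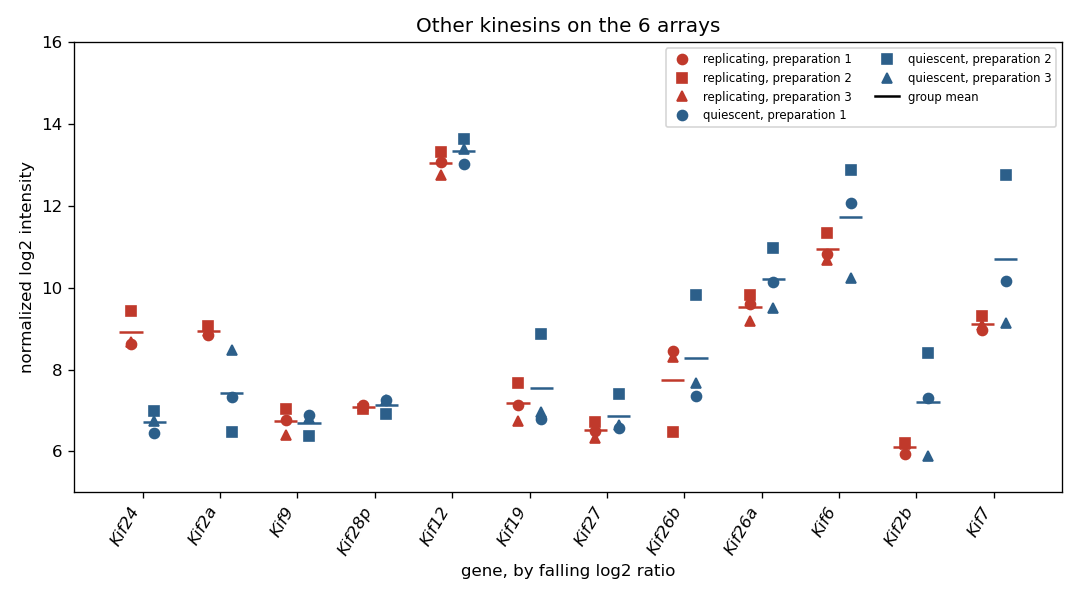
Normalized log2 intensity (vertical axis) of the 12 other kinesins (horizontal axis, by falling ratio) on the 3 replicating (red) and 3 quiescent (blue) arrays; symbols are preparations and bars group means. *Kif24* and *Kif2a* have their replicating points on top, *Kif12* lies near 13 in both groups, and the quiescent square of preparation 2 is the highest point of 8 of the 12 genes.

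*Kif12*, a kinesin known from β-cells and kidney, read 13.09, 13.33 and 12.75 on the replicating and 13.02, 13.65 and 13.39 on the quiescent arrays. The groups overlapped and the ratio was -0.30 (unadjusted p = 0.40). *Kif7*, which regulates Hedgehog signalling at the tip of the cilium, had the lowest ratio, -1.57, with an unadjusted p of 0.070. Quiescent array 2 read 12.76, the other quiescent arrays 10.17 and 9.15, and the replicating arrays 8.96, 9.31 and 9.09. Without preparation 2 its ratio was -0.63, and its other probe gave 0.35. *Kif9*, a motor of cilia and sperm flagella, and *Kif28p* had the ratios nearest to 0, at 0.04 and -0.05. *Kif6*, also of cilia, was at -0.78 on a probe with a mean of 11.34 over all arrays. Its other probe had a mean of 6.44 and a ratio of -0.36, and was well above background on 0 of 3 replicating arrays. The other 4, *Kif19* and *Kif27* of cilia and the signalling kinesins *Kif26a* and *Kif26b*, lay between -0.67 and -0.35, and *Kif26b* became 0.87 without preparation 2. *Kif27* and *Kif26b* were well above background on 2 of 3 replicating arrays.

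Probes of 1 gene did not always read alike. Of the 15 genes with more than 1 probe, 8 had probes with ratios on both sides of 0, and in 7 the ratios differed by over 1. These were *Kif14*, *Kif4b*, *Kif1b*, *Kif13b*, *Kif21b*, *Kif5c* and *Kif7*. *Kif21b*, a kinesin-4 that governs microtubule growth, had 0.29 on its brighter probe and -1.28 on the other, where quiescent array 2 read 11.73 and the other 5 arrays between 7.42 and 7.76. *Kif1b* gave 1.34, 0.70 and 0.07 on its 3 probes, and *Kif13b* 0.92, 0.77 and -0.70. None of these pairs had a probe called in each direction.

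Most of the listed genes that work with mitotic kinesins rose. The partner lists were chosen with earlier results of these data known. This list also holds genes that the study names among its most raised, such as *Plk1* and *Cdk1*. Its counts are a description and lend no separate support to the kinesin result. Of 28 listed partners, 26 were measured; 21 rose and 0 fell, against 5.63% and 2.76% of named genes, with a median ratio of 3.35. They included *Prc1*, the bundler of midzone microtubules, at 3.94, and *Tpx2*, which brings Aurora A to the spindle, at 3.97. *Racgap1*, which joins *Kif23* in centralspindlin, was at 2.76, from 10.61, 10.45 and 10.83 against 8.05 and 7.87. Its value on quiescent array 2 was marked as an outlier and is missing, so preparation 2 does not enter its ratio. With that spot kept, the mean over 6 arrays was 9.78, which places the dropped value above all replicating values. The ratio of *Racgap1* would therefore be lower with it. The 5 highest called partners were *Knstrn* at 5.56, *Plk1* at 5.12, *Spag5* at 4.81, *Cdk1* at 4.38 and *Arhgap11a* at 3.97, the last well above background on 2 of 3 quiescent arrays. On the arrays the mean level of the list was between 10.71 and 10.82 in the replicating and between 7.84 and 7.89 in the quiescent cells. *Zwint*, *Tacc3*, *Aurkc*, *Birc5* and *Numa1* were not called.

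Of the partners of transport kinesins nearly all were not called. Of 32 light chains, adaptors and microtubule-associated genes, 27 were measured; 1 rose, *Map7d1* at 1.91, and 0 fell. The share called higher over named genes was 5.63%. The median of the list was 0.22, with 0.31, 0.50 and -0.25 in preparations 1, 2 and 3, so its sign was not the same in all of them. The kinesin light chains *Klc1*, *Klc3* and *Klc4*, which couple kinesin-1 to cargo, were at 0.24, -0.77 and -0.07. Dynein and dynactin, which carry cargo the other way, had 27 of 28 genes measured, of which 1 rose, *Pafah1b1* at 1.81, and 0 fell, again beside 5.63% of named genes called higher. Their median of 0.44 was 0.30, 0.88 and -0.23 in preparations 1, 2 and 3.

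**Figure D5:**
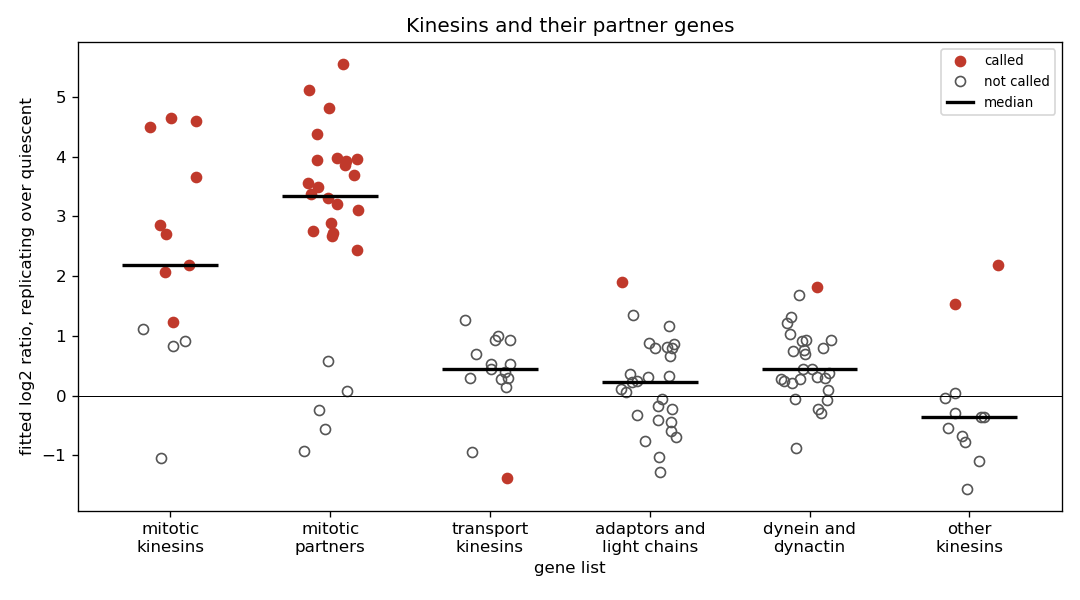
Fitted log2 ratio of replicating over quiescent β-cells (vertical axis) for the kinesin classes and their partner lists (horizontal axis), with 1 point per gene, filled where called, and a bar at the median. The medians are 2.19 for mitotic kinesins, 3.35 for their partners, 0.44 for transport kinesins, 0.22 for adaptors and light chains, 0.44 for dynein and dynactin, and -0.36 for other kinesins.

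Markers of other cells were read on the same arrays, where 5.63% of named genes were called higher. Of 12 fibroblast and stellate cell markers all 12 were above 0 and 5 rose, with a median of 1.26. The 5 that rose were *Col6a3* at 3.06, *Col3a1* at 3.04, *Col1a2* at 2.93, *Vim* at 1.89 and *Mgp* at 1.62. These ratios lie within the range of the called mitotic kinesins. The lowest marker was *Acta2* at 0.26. The mean level of the list was 9.19 to 10.32 on replicating and 8.15 to 8.53 on quiescent arrays. Called higher were also 2 of 10 alpha cell markers, *Gcg* at 2.39 and *Gc* at 1.86. So were 2 of 3 delta cell, 1 of 2 PP cell, 2 of 6 immune and 1 of 8 acinar markers. The duct list had 1 of 6, the glia and neuron list 1 of 8 and the endothelial list 0 of 6. In these short lists a count of 1 is within 1 gene of that share. Of 9 β-cell markers 0 rose and 1 fell, *Mafa* at -1.01, with a median of -0.56 for the list. No list had a marker at 0, as arrays give every probe a reading. The part of these cells in the kinesin ratios was not tested.

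The small ratios of the transport class moved with the normalization. With each array scaled to its 75th percentile in place of quantile normalization, the median of all probes moved from -0.07 to -0.39 with normexp. It moved to -0.71 with Feature Extraction's processed signal, where the background correction differs as well as the scaling. Of all called probes 51.5% were higher as deposited, against 21.4% and 17.2% under these settings. The mitotic median was then 2.34 and 3.03, and 10 and 7 of the 13 genes were called higher. The transport median was 0.19 and 0.48, still above the median of all probes, and *Kif3a*, *Kif13a*, *Kif16b* and *Kif21b* changed sign. Further genes were then called lower in limma. With scaled normexp values these included the mitotic *Kif4b*, at -1.29 (unadjusted p = 0.031), and *Kif7*, at -1.37 (unadjusted p = 0.0194). With the processed signal *Kif27* was called lower, at -2.18 (unadjusted p = 0.0311). With normexp values so scaled, 7 kinesins passed an adjusted p of 0.05 in limma with Benjamini-Hochberg adjustment, 5 did without the preparation as a block, 4 without preparation 2 and 3 with a variance trend, all of them mitotic. Over all probes 719, 99, 84 and 61 passed under these 4 settings, against 0 in the main fit. The 7 included *Kif4a*, whose groups overlapped in the deposited values.

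Across the family the replicating arrays were closer to each other than the quiescent arrays. The SD over 3 arrays had a median of 0.29 in the replicating and 0.69 in the quiescent group. It was larger in the quiescent group for 34 of the 40 genes. The share of all named genes with a larger quiescent SD was not computed. Over all probes r was 0.97 to 0.99 between replicating arrays and 0.65 to 0.87 between quiescent arrays, so the wider spread is not particular to kinesins. Quiescent array 2 lay over 1 above the mean of the other 2 quiescent arrays for 12 genes and over 1 below it for 7. Of the mitotic kinesins 5 were so raised and 0 lowered, of the transport kinesins 1 was raised and 6 lowered. The other quiescent arrays differed from each other by a median of 0.48.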

How the data were processed

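The authors amplified RNA from sorted cells, hybridized it to Agilent 1-colour rat arrays and read them with Feature Extraction 10.7.3.1, with probe positions on rn4 per the file headers. They deposited scanner intensity values and, for each spot, log2 values made by normexp and quantile normalization. Normexp at an offset of 50 with quantile normalization, recomputed from the intensity values, matched these log2 values within 0.000245 on every array. All value columns had a sample (0 without one).

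The deposited log2 values were fitted with limma 3.58.1 in R 4.3.3 (with data.table, version 1.17.8), blocking on islet preparation, since the study's methods name a paired test. Outlier spots were treated as missing and replicate spots of a probe averaged. Adjusted p is by Benjamini-Hochberg over 45598 probes. The pairing comes from the labels and methods; deviations of paired arrays had an r of 0.0561, 0.242 and 0.258. Scripts were tested on simulated data. Classes and partner lists, and which genes are named (all mitotic kinesins, called and extreme members of the other classes, *Kif5b*, *Kif12*, members whose probes differ by over 1, and chosen or called partners), were chosen with earlier results of these data known. *Kif1a*, *Cenpe* and *Klc2*, which that choice also names, are not analysed here. Of 60 probe accessions 41 matched RefSeq, 0 of them to another symbol. With 1 slide for all arrays, no slide block was fitted. The alternatives were the recomputed values, both scalings to the 75th percentile, a filter on dim probes, outlier spots kept, a variance trend, no block, the median over probes, another class for *Kif2a*, *Kif2b* and *Kif24*, and each preparation left out. The cell sorting, culture and qPCR experiments were not analysed here.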

Additional observations from a re-analysis of the deposited data

How the results depend on the processing

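The count of called mitotic kinesins lay between 7 and 12 over 12 alternatives, their median ratio between 1.86 and 3.03, the transport median between 0.19 and 0.62 and the difference between 1.47 and 2.55. With Feature Extraction's processed signal 0 transport kinesins were called lower, 1 other kinesin was called higher and the mitotic median was 3.027. With the median over probes 1 transport kinesin was called higher, *Kif13b*. With *Kif2a*, *Kif2b* and *Kif24* counted as mitotic, 11 mitotic and 0 other kinesins were called higher. Leaving out each preparation in turn gave 1 to 2 other kinesins called higher and 1 to 2 transport kinesins called lower. With no replicate block, that is without the pairing, 8 mitotic kinesins were called and *Kif4a* had an unadjusted p of 0.0745; the other counts were the same. Ratios that changed sign belonged to genes that were not called. With the processed signal *Kif3a* was -0.20, *Kif13a* -0.17, *Kif16b* -0.27, *Kif21b* -0.10 and *Kif9* -1.28. With scaled normexp values *Kif3a* was -0.0072, *Kif13a* -0.17, *Kif16b* -0.081, *Kif21b* -0.074 and *Kif9* -0.42, and with the median over probes *Kif21b* was -0.49. Without 1 preparation in turn, *Kif13a* lay between -0.28 and 0.48, *Kif13b* between -0.18 and 1.72, *Kif21b* between -0.063 and 0.62, *Kif9* between -0.27 and 0.28, *Kif19* between -0.71 and 0.067 and *Kif26b* between -1.37 and 0.87, with the changed sign without preparation 2 each time. Over all probes 662 were called higher and 3193 lower with the processed signal, 1596 and 5862 with scaled normexp values, 1879 and 878 without the block, 518 and 63 without preparation 1, 1447 and 813 without preparation 2, and 5112 and 5633 without preparation 3, against 2023 and 1905. The cause was not tested. Precision is limited by 3 arrays per group, and for the dim probes of *Kif2b*, *Kif14*, *Kif21a*, *Kif26b* and *Kif27* by background.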

Other observations

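Chosen after the values were seen, the reading of quiescent array 2 against the mean of the other 5 arrays was compared between the first and last probe of each kinesin gene, in the direction of transcription on rn4, for 14 genes with more than 1 probe on 1 chromosome. The downstream probe was lower by over 1 in 6 genes and higher by over 1 in 6 genes, with a median difference of -0.67. *Kif21b* had a deviation of 4.08 upstream and -1.78 downstream, and *Kif1b* 0.92 and -3.82. *Kif7* had -0.53 and 3.43, and *Kif5c* -2.24 and 0.44. *Kif5b* had 0.22 and -2.84. The direction differed between genes.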
